A study of Mus musculus with 3 samples.

Results

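The Rab family holds the largest branch of the Ras-like small GTPases. Its members were taken as the non-control probes of the array whose gene name on the array is Rab followed by a number, with or without a letter after it. The rule found 57 Rab genes, measured by 82 of 55681 probes, among 22327 genes on the array. RefSeq now names 2 of them differently, Rab1 as Rab1a and Rab7l1 as Rab29, and lists Rab39a as a synonym of Rab39. The names of the array are used here.

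A Rab protein is switched on when it binds GTP and off when it hydrolyses it, and a lipid tail anchors the active form to 1 kind of membrane. Exchange factors load GTP, GTPase-activating proteins end the active state, and effectors that bind only the active form move, tether or dock the vesicle. In neurons, Rab3 proteins sit on synaptic vesicles and dense-core vesicles, Rab27 proteins act in regulated secretion, Rab5, Rab7 and Rab11 mark early, late and recycling endosomes, and Rab1, Rab2 and Rab6 serve the endoplasmic reticulum and the Golgi.

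The samples were primary cerebral cells from C57BL6/J mice at embryonic day 18, grown in neurobasal medium with B27 and treated for 24 h from day 10 in vitro. One sample received 1 mM valproate, which inhibits class I histone deacetylases, 1 received 100 µM lamotrigine, a blocker of voltage-gated sodium channels, and the control received the solvent alone. All 3 samples held 0.1% DMSO, and the study looked for neuronal genes that respond to class I histone deacetylase inhibition. RNA labelled with Cy3 was read on 1 array per treatment. Precision is limited by this number, differences between treatments were not tested, and there are no p-values. In a mixed culture, fewer cells of a type and less RNA per cell cannot be told apart.

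Every signal is scaled so that 100 marks the 75th percentile of an array's non-control spots, and is called scaled signal. A gene is called detected where its probe was well above background, and differences are on the log2 scale. Spots of the same probe on 1 array give the only measure of error, an SD of a log2 difference between 2 spots of 0.24 at a scaled signal under 25, 0.11 from 25 to 100, 0.08 from 100 to 400 and 0.06 above. This technical spread does not hold the spread between cultures. Probes differ in how they bind, so signals are compared between arrays and not between genes.

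The 75th percentile of processed signal was 478 with valproate, 372 with DMSO and 388 with lamotrigine, and 0 spots were saturated. All 10 neuron markers and all 8 astrocyte markers were detected on every array, as were 9 to 10 of 10 oligodendrocyte lineage markers. Of 8 microglia and macrophage markers 5 were detected on each array. Cx3cr1, P2ry12 and Ptprc were not. Of 6 mast cell markers 2 were detected, the growth factor receptor Kit and the tryptase Tpsb2. The astrocyte markers had a summed scaled signal of 20774 with valproate, 40874 with DMSO and 40178 with lamotrigine. Aldoc was the largest part of each sum, at 10073, 25995 and 25605 in that order. The median log2 difference of the astrocyte markers between valproate and DMSO was -0.50, with 7 of 8 below 0 and Gfap at 0.06. For the 9 measured oligodendrocyte lineage markers it was -0.38, with 3 above 0 and 6 below. They ran from -3.75 for Gpr17 to 0.60 for Mbp. All 5 fibroblast and meningeal markers lay below 0, with a median of -0.39. The 3 measured endothelial and mural markers had a median of -0.16, with 1 above 0 and 2 below. The part of these markers in the results was not tested.

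The probes behind the Rab genes that stood apart are shown by their first 30 bases of 60, since the reading of each gene rests on them. They are written 5′ to 3′ with the mm9 position of the whole probe, and capitals mark the run of 25 bases that both openings of Rab37 share.
Rab37, probe at chr11:115023483-115023542, plus strand: atacaTAGCTCTGGGCCTCTGGCATTTCTG
Rab37, probe at chr11:115023488-115023547, plus strand: TAGCTCTGGGCCTCTGGCATTTCTGttttt
Rab39, probe at chr9:53492468-53492527, minus strand: acaatgaagacagattttcttgagttcttt
Rab26, probe at chr17:24666408-24666467, minus strand: tccacgctggaggaagcagttctgcctttg
Rab3d, brighter probe at chr9:21713734-21713793, minus strand: ctattcactgaccagactcccctaaacact
Rab3d, dimmer probe at chr9:21719348-21719407, minus strand: cgctaccggacaatcaccacggcctactat
Rab30, brighter probe at chr7:99985062-99985121, plus strand: gtgctaatgattatgctatttcacagacca
Rab30, dimmer probe at chr7:99985127-99985186, plus strand: cctaaaaataaaaagagaatgggggaaatc
The Rab37 probes overlap on the genome over 55 bases and are nearly the same oligonucleotide, so they are not separate measurements of the transcript. The Rab30 probes lie side by side and share no base, and the Rab3d probes lie apart. Exon and UTR annotation of the mm9 build was not used here.

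Valproate was set against DMSO first. A small number of Rab genes stood far above their DMSO level with valproate, Rab37 by 6.40-fold, Rab39 by 3.84-fold and Rab26 by 3.68-fold, while most of the family lay close to it. Rab3d was 1.60-fold higher and Rab30 1.55-fold lower. The 2 arrays both detected 51 Rab genes, of which 5 were at least 1.5-fold apart, 4 higher and 1 lower. The background over all 14345 genes was 12.2% past this line, 6.25% higher and 5.95% lower, so the share of Rab genes past it (9.80%) was near the background. At least 2-fold apart were 3 of 51 Rab genes, or 5.88%, all 3 of them higher, and 3.51% of all genes, with 2.09% higher and 1.42% lower. The median log2 difference was -0.10 for the Rab genes and -0.08 for all genes. Above 0 lay 22 Rab genes (43.1%), against 39.3% of all genes, and 29 lay below.

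A different scaling factor shifts every gene alike, and quantile normalization does not. The latter moved the valproate differences of the bright Rab3a from -0.38 to -0.17 and Rab6b from -0.35 to -0.13. It left the dimmer Rab26 at 1.88. With spike-in scaling, valproate against DMSO moves up by 0.35 on the log2 scale and lamotrigine against DMSO by 0.20. The median of all genes then stood at 0.27 and 0.16, and 20 of the 29 Rab genes below 0 with valproate turned positive. Only 9 Rab genes stayed below 0 with valproate under the main setting and all 9 alternatives, and 21 stayed above it. Spike-in scaling only moves valproate differences up, so it could not turn a value above 0. The 21 include Rab12 at 0.00 and Rab4a at 0.02, both under their technical spread of 0.06. Valproate differences between -0.35 and 0 therefore have no settled direction, and differences just above 0 are not settled by this count either. Values are best read against the median of all genes.

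**Figure D1:**
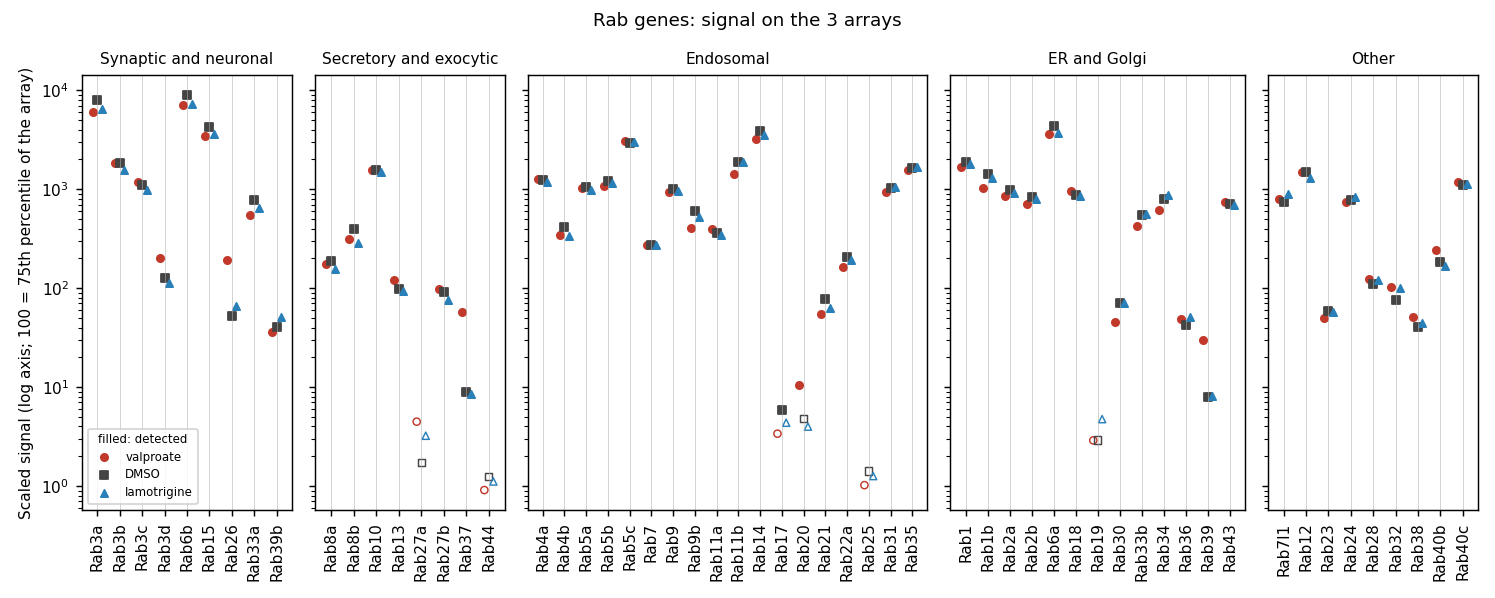
Scaled signal (log axis, 100 is the 75th percentile of the array) of each of the 57 Rab genes on the valproate, DMSO and lamotrigine arrays, by class. Filled points were detected and open points were not. Rab37 (57.6 with valproate, 8.99 with DMSO, 8.42 with lamotrigine), Rab39 and Rab26 have the valproate point far above the other 2.

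The Rab genes of synaptic vesicles and neurons were 9, all detected on every array. Rab3a, the most studied Rab of synaptic vesicles, had a scaled signal of 6087 with valproate, 7904 with DMSO and 6529 with lamotrigine. Both drug arrays thus lay below the DMSO array, by log2 differences of -0.38 and -0.28, which shrink to -0.03 and -0.07 with spike-in scaling. Rab3b had 1838 with valproate, 1849 with DMSO and 1577 with lamotrigine, a difference of -0.01 with valproate that is 0.34 with spike-in scaling. Rab3c had 1186, 1094 and 983 in the same order, and its 3 probes gave valproate differences of 0.12, 0.06 and 0.01. So on the main scale these Rab3 genes did not share a direction with valproate. With spike-in scaling Rab3c was at 0.47, and Rab3a at -0.03 was within its technical spread of 0.06. Whether they share a direction is thus not settled.

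Rab3d, which in exocrine glands coats secretory granules, was the Rab3 gene farthest from DMSO. Its brighter probe had 204 with valproate, 128 with DMSO and 112 with lamotrigine, a log2 difference of 0.67 from DMSO. The dimmer probe had 30.8 with valproate and 29.5 with DMSO, a difference of 0.06, and was at -0.24 with lamotrigine. The probes of Rab3d therefore disagree, and the gene is at 0.37, under 1.5-fold, where both are averaged.

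Rab26, which in mouse and cell studies marks synaptic vesicles that are taken up by autophagy and also acts in granule secretion, had 192 with valproate, 52.3 with DMSO and 66.3 with lamotrigine. The valproate array was the high one by a log2 difference of 1.88 from DMSO and 1.54 from lamotrigine. Its lowest value under any alternative was 1.53, with normexp background correction. That correction was run with an offset of 50, added to every signal before scaling. The offset by itself shrinks differences between low signals, here and wherever normexp values are given below. Of 14345 genes 36, Rab26 included, had a difference from DMSO at or above that of Rab26. The gene has 1 probe.

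The other neuronal Rab genes lay below the DMSO level or near it with valproate. Rab6b, the neuronal form of the Golgi Rab6, had 7054 with valproate, 8974 with DMSO and 7278 with lamotrigine. Rab15, which acts in endosomal recycling in neurons, had 3452, 4221 and 3629 in that order. Rab33a, which in rat neurons carries vesicles to the growing axon, had 553, 775 and 648, a valproate difference of -0.49. For these 3 genes the DMSO array was the high one, although Rab6b is at 0.00 and Rab15 at 0.06 with spike-in scaling. Rab39b, mutated in an X-linked human disorder with intellectual disability and parkinsonism, had 36.0 with valproate, 40.9 with DMSO and 50.6 with lamotrigine. Its valproate difference of -0.19 turns to 0.16 with spike-in scaling. The median of the 9 synaptic and neuronal Rab genes was -0.19 with valproate, and 0.16 with spike-in scaling. Beside it, the 10 neuron markers had a median of -0.30 with valproate, with 3 above 0 and 7 below. They ran from -0.94 for Tubb3 to 0.60 for Nefm. Their median lies in the range, given above, of valproate differences that have no settled direction. The summed scaled signal of these markers was 25666 with valproate, 34165 with DMSO and 30176 with lamotrigine. Stmn2 was the largest part of each sum, at 9776, 12623 and 11174 in that order. The part of these markers in the result was not tested.

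Among the Rab genes of secretion and exocytosis, 6 of 8 were detected on every array and 2, Rab27a and Rab44, on none. Rab37, described in mast cells and other secretory cells as a Rab of granule release, had 57.6 with valproate, 8.99 with DMSO and 8.42 with lamotrigine. The valproate array stood alone, with a log2 difference of 2.68 from DMSO and 2.77 from lamotrigine. The overlapping probe gave 54.5, 9.06 and 7.10, a difference of 2.59 from DMSO. Of 14345 genes 5, Rab37 included, had a difference from DMSO at or above it. The low DMSO and lamotrigine values are close to the detection floors of 5.29 and 4.63. The difference from DMSO is 1.32 with normexp correction, where the offset of 50 alone shrinks a difference between such low signals. The mast cell markers beside it had summed scaled signals of 358 with valproate, 378 with DMSO and 365 with lamotrigine, and Cpa3, Mcpt4, Fcer1a and Ms4a2 were not well above background on any array.

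Rab27b, which docks dense-core vesicles and other secretory granules, had 98.1 with valproate, 91.6 with DMSO and 76.2 with lamotrigine. This valproate difference of 0.10 is under the technical spread of 0.11 at that signal, and the second probe gave 0.34. Rab8a and Rab8b carry vesicles from the Golgi to the plasma membrane. Rab8a had 175 with valproate, 189 with DMSO and 156 with lamotrigine. Rab8b had 316, 399 and 286, so that both drug arrays lay below DMSO, by -0.34 and -0.48, but its dim second probe, well above background with valproate alone, gave a bound of 0.36. Rab10, of polarised and axonal membrane supply, had 1566, 1563 and 1508, no more than 0.05 apart. Rab13, a Rab of cell junctions, had 121, 97.3 and 94.6, with 0.32 on the brighter probe and 0.36 on the other for valproate. Outside Rab37 the class stayed between -0.34 and 0.32, and its median was 0.05.

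**Figure D2:**
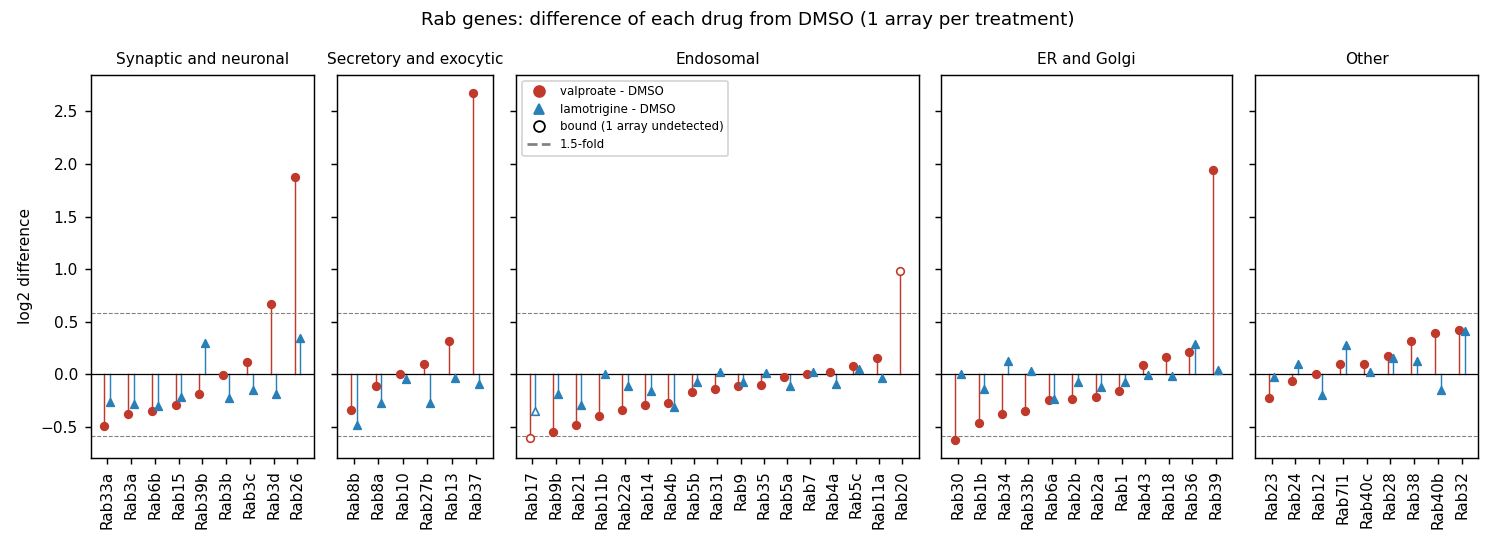
Log2 difference of valproate (circles) and of lamotrigine (triangles) from DMSO for the 53 Rab genes detected on at least 1 array of valproate and DMSO, ordered within each class. Open symbols are bounds where 1 array was undetected, dashed lines mark 1.5-fold, and Rab37 (2.68), Rab39 (1.94) and Rab26 (1.88) stand above all other values.

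Endosomal Rab genes were 18, of which 15 were detected on every array, and 0 of these 15 were at least 1.5-fold apart with valproate, where 12.2% of all genes were, a count too small to set them apart from that background. Their differences ran from -0.55 for Rab9b, a Rab of late endosomes, to 0.15 for Rab11a, of recycling endosomes, with a median of -0.14 that is 0.21 with spike-in scaling. Rab9b had 408 with valproate, 598 with DMSO and 524 with lamotrigine. Rab21, which returns integrins from early endosomes, had 55.4, 77.4 and 63.2 in the same order. Both had the DMSO array highest and the valproate array lowest, and both stay below 0 with spike-in scaling, at -0.20 and -0.13. The early endosome gene Rab5a, whose probe was printed 10 times, had 1033, 1055 and 981, with SDs over its spots of 0.04, 0.07 and 0.07 log2. Rab7, the main late endosome and lysosome Rab, had 272, 272 and 275.

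The endosomal class also held genes at the edge of detection. Rab20, which in macrophages takes part in phagosome maturation, had 10.4 with valproate, while its 4.80 with DMSO and 3.98 with lamotrigine were not well above background. It was at least 1.97-fold higher with valproate than with DMSO and at least 2.25-fold higher than with lamotrigine, measured against each array's floor. With normexp correction the log2 differences of Rab20 are 0.10 from DMSO and 0.24 from lamotrigine, so these bounds do not hold there. Rab17, a Rab of epithelial transcytosis, was detected with DMSO alone, at 5.91 near the floor of 5.29, and was at least 1.52-fold lower with valproate on the main scale. That log2 bound of -0.61 is -0.26 with spike-in scaling and -0.42 with normexp correction, both under 1.5-fold. Rab25 was not well above background on any array. Where genes had 1 array undetected, the difference is a bound and is not counted among the 51. The microglia and macrophage markers beside Rab20 had summed scaled signals of 1654 with valproate, 1518 with DMSO and 1650.3 with lamotrigine. Most of each sum was Itgam, at 1438, 1264 and 1398 in that order. The median log2 difference of the 5 measured markers was -0.08 with valproate against DMSO, with 2 above 0 and 3 below. The other 3 of the 8 genes were not well above background on any array.

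Of 13 Rab genes of the endoplasmic reticulum and the Golgi, 12 were detected on every array and Rab19 on none. Rab39, the relative of the neuronal Rab39b, which in macrophages and epithelial cells acts in phagosome acidification and autophagy, had 30.2 with valproate, 7.88 with DMSO and 8.12 with lamotrigine. The valproate array was higher by 1.94 than DMSO and by 1.90 than lamotrigine. The difference from DMSO is 0.79 with normexp correction, and the low values were again near the detection floor. Rab30, a Golgi Rab, went the other way. It had 45.9 with valproate, 71.1 with DMSO and 71.2 with lamotrigine on the brighter probe, and 13.2, 22.3 and 23.5 on the other. Those probes gave differences of -0.63 and -0.76, with the valproate array the low one on both. Rab30 is under 1.5-fold with spike-in scaling, at -0.28, and with normexp correction, at -0.50.

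The other Golgi genes lay between -0.46 and 0.21 with valproate. Rab1b, of transport from the endoplasmic reticulum to the Golgi, had 1035 with valproate, 1428 with DMSO and 1297 with lamotrigine. Its relative Rab1 had 1669, 1865 and 1778. Rab6a, the ubiquitous Golgi Rab6, had 3632, 4325 and 3662, where both drug arrays were about equally below DMSO. Rab18, of lipid droplets and the endoplasmic reticulum, was on the other side at 967, 867 and 857. The class median was -0.23 with valproate and 0.12 with spike-in scaling.

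The remaining 9 genes, of lysosome-related organelles, cilia, autophagy and ubiquitin ligases, had a median of 0.10 with valproate, and 7 of 9 lay above 0. Over all genes 39.3% lay above 0 with valproate. With lamotrigine 6 of the 9 lay above the same DMSO array, also with a median of 0.10. Rab32, of melanosomes and other lysosome-related organelles, had 102 with valproate, 75.8 with DMSO and 101 with lamotrigine, so that both drug arrays were above DMSO, by 0.42 and 0.41. Rab40b, whose protein joins a ubiquitin ligase, had 242, 185 and 167 and differed from DMSO by 0.39 with valproate. Rab38, the relative of Rab32, had 50.6, 40.6 and 44.3. Rab23, an inhibitor of Hedgehog signalling, was the lowest at -0.23. None of the 9 reached 1.5-fold in any of the 3 comparisons on the main scale, where 12.2% of all genes did with valproate and 1.88% with lamotrigine against DMSO. With spike-in scaling Rab32 (0.77), Rab40b (0.74) and Rab38 (0.67) passed it with valproate.

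Lamotrigine was set against DMSO as the other antiepileptic drug, and per the labels its array was left out of the histone deacetylase work. Of 51 Rab genes measured with both, 0 were at least 1.5-fold apart, against 1.88% of all 14339 genes, 1.12% higher and 0.760% lower. At 2-fold the count was again 0 of 51, against 0.160% of all genes, 0.0976% higher and 0.0628% lower. The differences ran from -0.48 for Rab8b to 0.41 for Rab32, with a median of -0.07, against -0.05 for all genes. By class, the medians were -0.22 for synaptic and neuronal, -0.18 for secretory, -0.07 for endosomal, -0.01 for Golgi and 0.10 for the other Rab genes. With spike-in scaling they were -0.02, 0.02, 0.13, 0.19 and 0.31. Rab37 was at -0.09 and Rab39 at 0.04, both under the technical spread of 0.24 at such low signals, but the overlapping Rab37 probe was at -0.35, past it. Rab26 was at 0.34, with a technical spread of 0.11. Both drug comparisons share the DMSO array, so a gene that lies on one side of DMSO with both, such as Rab3a, Rab6b or Rab32, may differ through that array alone.

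Valproate against lamotrigine uses no DMSO array. With valproate 4 of 51 Rab genes stood above lamotrigine by at least 1.5-fold and 1 stood below, against 6.17% and 5.84% of all 14543 genes. At 2-fold 3 were higher and 0 lower, against 2.06% and 1.69%. They were Rab37 at 2.77, Rab39 at 1.90, Rab26 at 1.54, Rab3d at 0.87 and Rab30 at -0.64, on the same side as against DMSO. Rab30 is at -0.49 with spike-in scaling and -0.53 with normexp correction, under 1.5-fold. This comparison shares the valproate array with the first and is no second measurement of the drug. Rab3a was at -0.10, Rab6b at -0.05 and Rab15 at -0.07. All 6 detected secretory Rab genes lay above 0, where 45.3% of all genes did. Their median was 0.26, and the median of all genes was -0.03. The same 6 genes all lay below DMSO with lamotrigine, while 4 of 6 lay above DMSO with valproate, with a median of 0.05.

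**Figure D3:**
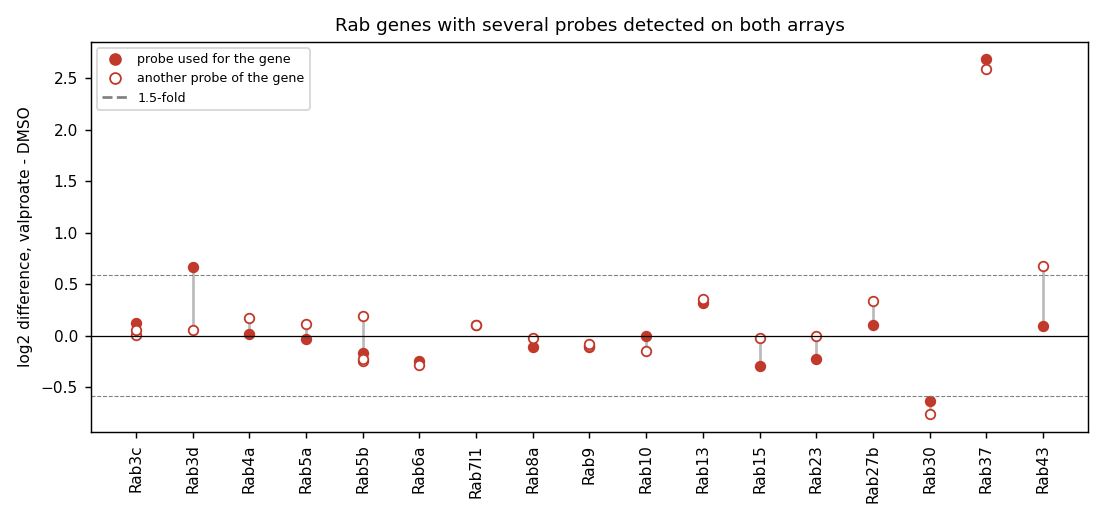
Log2 difference of valproate from DMSO for each probe of the 17 Rab genes with several probes detected on both arrays; filled points are the probes used for the gene and dashed lines mark 1.5-fold. The Rab37 points (2.68 and 2.59) and the Rab30 points (-0.63 and -0.76) lie close together, and the Rab3d points (0.67 and 0.06) and Rab43 points (0.09 and 0.68) do not.

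Several probes per gene give a view of how far a single probe can be read. There were 21 second probes of 17 genes detected with valproate and DMSO, and 19 of 21 lay within 1.5-fold of the probe used. The median gap was 0.11 and the largest 0.61, for Rab3d. The other wide gap was that of Rab43, a Golgi Rab, whose bright probe had 746 with valproate and 701 with DMSO and whose dim probe had 13.4 and 8.41. Rab39 and Rab26 have no second probe.

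Genes that regulate Rab proteins or bind their active form were measured as well. Prenylation and recycling factors had a median of -0.18 over 8 genes, exchange factors -0.09 over 24, GTPase-activating proteins -0.11 over 33 and endosomal and Golgi effectors -0.04 over 27, all with valproate against DMSO and all above 0 with spike-in scaling. The effectors of Rab3 and Rab27 had a median of 0.29 over 11 genes, which is -0.01 with normexp correction. In that list 3 genes were at least 1.5-fold higher and 1 lower, where 6.25% and 5.95% of all genes were.

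Sytl4, or granuphilin, which holds Rab27 and Rab3 granules at the plasma membrane, had 29.9 with valproate, 8.0 with DMSO and 9.55 with lamotrigine, a valproate difference of 1.90. Rph3al, or Noc2, an effector of both Rabs in endocrine cells, had 45.3, 20.6 and 19.9, a difference of 1.14. Sytl2, a Rab27 effector of the same family, had 70.7, 45.7 and 58.2, a difference of 0.63. For all 3 the valproate array was the highest, although normexp correction brings them to 0.84, 0.67 and 0.42. Sytl3 was the member on the other side, with 6.24, 10.5 and 9.12 (-0.74, and -0.22 with normexp correction). Sytl5, Mlph and Exph5 were not well above background with either valproate or DMSO.

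From the remaining lists, Tbc1d2, a GTPase-activating protein for Rab7, had 122 with valproate, 53.5 with DMSO and 57.5 with lamotrigine, a valproate difference of 1.19 that is 0.62 where its probes are averaged. Rabif, or Mss4, which binds the nucleotide-free form of secretory Rabs, had 63.8, 123 and 100.3 in that order, a difference of -0.94. Tbc1d10c, of the same family as Tbc1d2, had 6.62, 12.1 and 16.3 (-0.87), and is at -0.52, under 1.5-fold, with spike-in scaling and with normexp correction. Rilpl1, a relative of the Rab7 effector Rilp, had 227, 149 and 147 (0.60, and 0.58 with normexp correction, under 1.5-fold). With lamotrigine against DMSO 0 genes of the 5 lists were at least 1.5-fold apart, near the 1.88% of all genes.

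**Figure D4:**
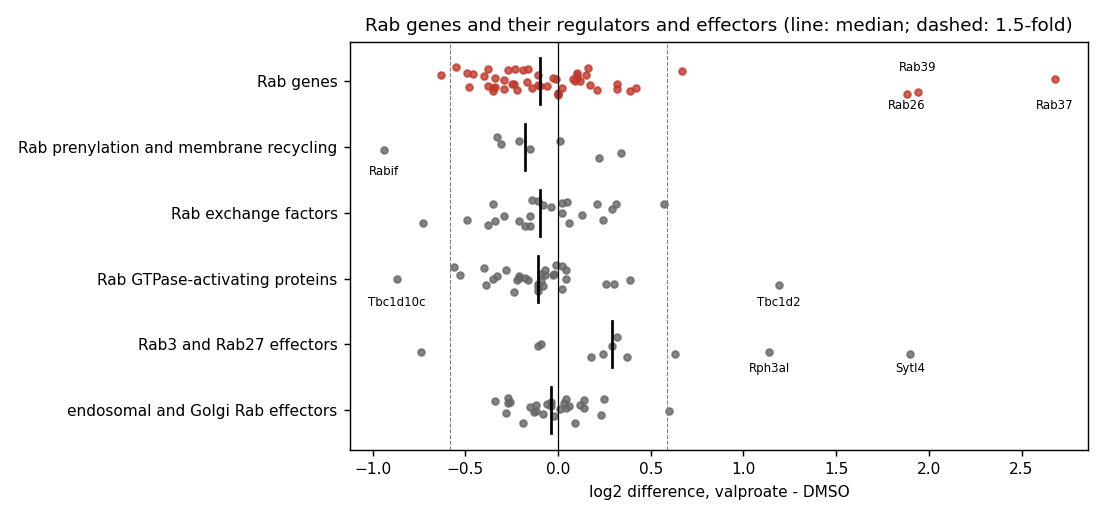
Log2 difference of valproate from DMSO for the Rab genes (red) and for 5 lists of Rab regulators and effectors (grey), each point a gene detected on both arrays, with the median as a black line and 1.5-fold dashed. The list of Rab3 and Rab27 effectors has the highest median (0.29) on the main scale shown, which is -0.01 with normexp correction, with Sytl4 at 1.90 and Rph3al at 1.14.

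The nearest chromosomal neighbours of the Rab genes that stood apart were read in the gene order of RefSeq. Cd300lf, an immunoglobulin-like receptor of myeloid cells that overlaps Rab37, was at -0.42 with valproate, and Slc9a3r1 next to it at -0.29. Beside Rab26, Traf7 was at -0.09 and Pkd1 at -0.16. With spike-in scaling, which adds 0.35, all of these but Cd300lf turn positive. Past Traf7, Caskin1 was at -0.56 and Mlst8 at -0.64, and both stay below 0 with that scaling. Past Pkd1, Tsc2 was at 0.10 and Nthl1 at -0.04. Beside Rab39, Cul5 was at -0.36 and Slc35f2 at 0.37, and Sln, the next gene on, was at 1.05, with 77.7 with valproate and 37.6 with DMSO. Past Cul5, Acat1 was at 0.07, and past Sln, Elmod1 was at -0.10. Beside Rab3d, Angptl8 was at -0.32 and Tmem205 at -0.25, and Dock6, the gene after Angptl8, was at 0.85. Beside Rab30, Ddias was at 1.03 and Prcp, the next gene on, at 0.76, both opposite in sign to Rab30. On the other flank, Ankrd42 was at -0.03 and Ccdc90b at -0.06.

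Start sites for 47 of the 57 Rab genes were found in the RefSeq table (GRCm38.p6), as 59 promoters of 250 bases before to 50 after the start. Of the 5 genes at least 1.5-fold apart, Rab39 and Rab3d had an entry, and both are shown with the GC box GGGCGG, searched on both strands, in capitals.
Rab39, chr9:53706183-53706482, minus strand: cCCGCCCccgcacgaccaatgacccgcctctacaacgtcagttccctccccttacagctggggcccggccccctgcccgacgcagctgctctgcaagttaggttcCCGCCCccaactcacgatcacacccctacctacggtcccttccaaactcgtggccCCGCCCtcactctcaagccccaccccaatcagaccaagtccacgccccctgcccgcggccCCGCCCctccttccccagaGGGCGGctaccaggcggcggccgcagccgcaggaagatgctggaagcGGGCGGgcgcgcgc
Rab3d, chr9:21918134-21918433, minus strand: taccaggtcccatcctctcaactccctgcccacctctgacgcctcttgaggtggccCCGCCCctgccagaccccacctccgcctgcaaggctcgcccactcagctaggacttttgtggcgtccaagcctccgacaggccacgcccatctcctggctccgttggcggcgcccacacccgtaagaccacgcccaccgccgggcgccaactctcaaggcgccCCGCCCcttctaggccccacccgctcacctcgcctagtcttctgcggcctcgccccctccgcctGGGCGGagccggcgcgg
The Rab39 promoter held 6 GC boxes and 27 CpG dinucleotides, and that of Rab3d 3 and 26. A GC box was found in 40 of 59 Rab promoters (67.8%) and in 35.7% of all 32851 promoters. A TATA box, TATAAA on either strand, was found in 3 Rab promoters (5.08%) and in 13.6% of all. The median number of CpG dinucleotides was 20.0 in the Rab promoters and 7 in all. These are letter matches in a fixed window and describe the family as a whole. Genes with several start sites count more than once. The 32851 promoters were not limited to genes detected on the arrays, whereas most Rab genes were detected.

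**Figure D5:**
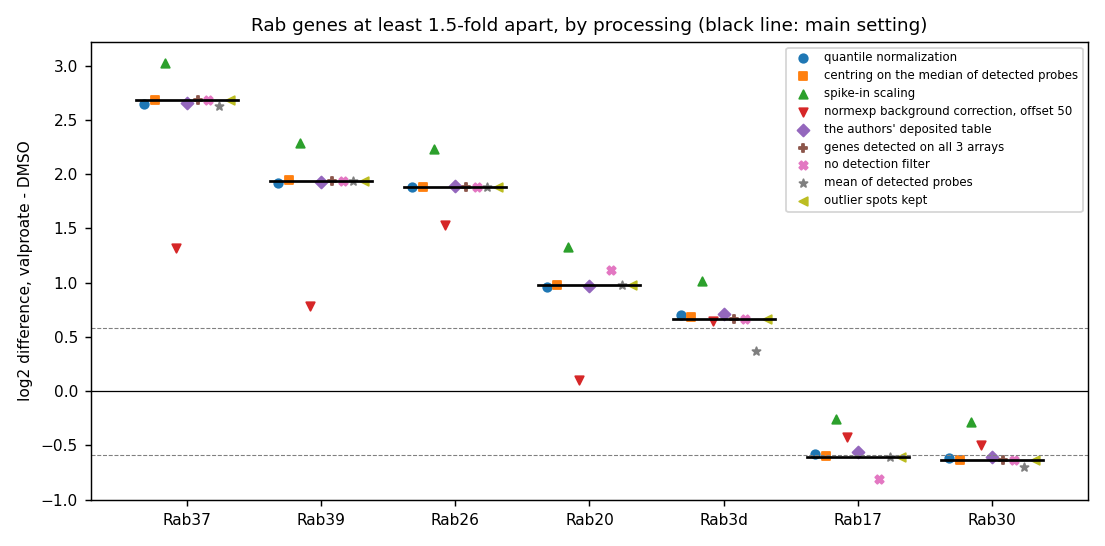
Log2 difference of valproate from DMSO for the 7 Rab genes at least 1.5-fold apart or with a bound past it, under the main setting (black lines) and up to 9 alternatives (points). Rab37, Rab39 and Rab26 stay above 1.5-fold (dashed) under each, with lows of 1.32, 0.79 and 1.53, and Rab20 is at 0.10 with normexp correction.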

How the data were processed

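Per the labels, total RNA was taken with TRIzol, amplified and labelled with Cy3 (Low Input Quick Amp kit), and read on 1-colour Agilent arrays. Per the file headers, intensity was read with Feature Extraction 10.7.1.1 and probes were annotated on mm9; the processed signal is corrected for background and detrended within an array only. The authors also deposited a table of normalized intensity, with equal column medians of 22.6, whose software is not given in the sources used here; it served as an alternative. Processed signals were divided by each array's 75th percentile, outlier spots were left out, spots of a probe were averaged on the log2 scale, and each gene took its probe with the highest mean. Differences use genes detected on both arrays; otherwise the undetected side was set to the array's detection floor (3.88 for valproate) or its own signal if higher, giving a bound. Genes at least 1.5-fold apart were counted, with no test. Every Rab gene could be named, and of each regulator list up to 4 genes farthest from 0. Classes, lists and members were chosen with earlier results of these data known. Neighbouring genes and undetected effectors were named after their values were seen. The calculation was checked on simulated signals with known differences. Python 3.11.15 and, for normexp with an offset of 50, limma 3.58.1 were used.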

Additional observations from a re-analysis of the deposited data

How the results depend on the processing

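Each of 46 results was recomputed under up to 10 alternatives, giving 419 values. Of these 349 moved by less than the technical spread or, for counts, by 1.5 times at most, and the others moved further or changed sign. With valproate against DMSO, the 5 Rab genes at least 1.5-fold apart became 8 with spike-in scaling, 8 without the detection filter and 3 at 2-fold. Between the drugs they became 3 at 2-fold. With lamotrigine the count of 0 became 1 with spike-in scaling and 2 without the detection filter. The median of the Rab genes with valproate (-0.10) became 0.00 with quantile normalization and with normexp correction, 0.03 with the authors' deposited table and 0.25 with spike-in scaling. With spike-in scaling the Rab median was 0.13 with lamotrigine and 0.13 between the drugs. The same scaling turned the synaptic (0.16), endosomal (0.21) and Golgi (0.12) medians with valproate, the secretory (0.02), endosomal (0.13) and Golgi (0.19) medians with lamotrigine, and the synaptic (0.10), endosomal (0.05) and Golgi (0.05) medians between the drugs. It adds a constant to every gene, and the spike-in amount is not given in the sources used here. Over all genes, 1750 at least 1.5-fold apart with valproate became 965 with normexp correction and its offset of 50, 2824 with spike-in scaling and 4394 without the detection filter. The split of higher against lower calls went from 896 against 854 to 2575 against 249 with spike-in scaling. Low signals limit Rab37, Rab39, Rab20 and Rab17. No paired analysis was possible because each group has 1 sample.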

Other observations

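Rab-like genes outside the naming rule were also measured. Rab42, whose probe is named as a pseudogene on the array, had a scaled signal of 21.5 with valproate, 9.90 with DMSO and 6.07 with lamotrigine. Its log2 difference from DMSO was 1.12 with valproate and -0.70 with lamotrigine. The DMSO and lamotrigine signals are near the detection floors of 5.29 and 4.63, where the technical spread is 0.24. Rab7b, a late endosomal relative of Rab7 that the array lists under a clone name, had 65.1, 80.6 and 92.3 in that order. Ift27, a Rab-like subunit of the transport complex of cilia, had 3429, 2963 and 2864. Rabl2 (-0.29), Rabl3 (-0.43) and Rabl6 (-0.23) were below DMSO with valproate on the main scale, by amounts that spike-in scaling, which adds 0.35 to every gene, turns or nearly cancels. These genes were chosen after their values were seen.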
